A study of Mus musculus with 2 samples.

Results

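ZNF536 and ZBTB20, 2 of the 9330 genes counted in nuclei of the mouse right atrium, encode zinc finger proteins that repress transcription, and they were picked by name with earlier results of these data known. Nuclei came from adult control mice and from adult Tbx5 G125R/+ mice, which carry on 1 allele the glycine-to-arginine change that was found in a family with Holt-Oram syndrome and atrial fibrillation. Each genotype is a single 10x Genomics library, made from a pool of 3 right atria whose nuclei were sorted on the DNA stain DAPI, which selects no cell type, and of which 7000 were loaded, so that no variation between mice can be seen, no test between genotypes was made, and every interval below covers counting error only. The comparison asks in which nuclei the genes were read and how their counts differed between the libraries. Nuclei were called titin-rich when they held at least 4 counts of TTN, which encodes the sarcomere spring titin, and when TTN made up at least 2% of their counts. By this rule 383 of 3475 control nuclei and 404 of 2933 Tbx5 G125R/+ nuclei were titin-rich.

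Zinc finger repressors bind DNA through small zinc-coordinated loops and recruit co-repressor complexes that remove acetyl groups from histones or remodel nucleosomes. ZBTB20 carries a BTB domain, by which proteins of its family pair and contact co-repressors. It is known in mice for silencing the alpha-fetoprotein gene in the liver after birth and for shaping hippocampal neurons. ZNF536 is known from brain tissue, and in cultured mouse cells it holds back neuronal differentiation driven by retinoic acid. TBX5 is a T-box transcription factor that binds regulatory DNA of many heart muscle genes.

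The tables carry human Ensembl identifiers for mouse nuclei (ENSG00000198597 for ZNF536 and ENSG00000181722 for ZBTB20), and the human symbols are kept here for what was counted under them. The mouse counterparts are Zfp536, matched through its RefSeq synonym Znf536, and Zbtb20. In the GRCm38 annotation (GENCODE vM21) Zfp536 lies on the minus strand of chromosome 7 from 37472135 to 37773641, a span of 301.5 kb, and Zbtb20 on the plus strand of chromosome 16 from 42875881 to 43642602, a span of 766.7 kb. The 300 bases around an annotated start of each gene, 250 before and 50 after it (RefSeq, GRCm38.p6), are shown because the mutated protein is a T-box factor and a reader may want to see which cardiac motif cores stand there. Zfp536 is at chr7:37769703-37770002 on the minus strand and Zbtb20 at chr16:43247034-43247333 on the plus strand. Both starts lie inside the annotated gene spans given above and not at their outer ends. Capitals mark matches on either strand to the cores searched, which were AGGTGT for T-box factors, then AAGTG for NKX2-5, and lastly AGATAA for GATA factors.
Zfp536: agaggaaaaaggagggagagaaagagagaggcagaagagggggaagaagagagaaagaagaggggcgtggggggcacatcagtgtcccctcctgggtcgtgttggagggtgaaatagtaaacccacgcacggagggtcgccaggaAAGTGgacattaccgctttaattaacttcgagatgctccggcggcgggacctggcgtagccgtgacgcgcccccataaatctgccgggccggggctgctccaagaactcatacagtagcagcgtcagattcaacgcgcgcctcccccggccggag
Zbtb20: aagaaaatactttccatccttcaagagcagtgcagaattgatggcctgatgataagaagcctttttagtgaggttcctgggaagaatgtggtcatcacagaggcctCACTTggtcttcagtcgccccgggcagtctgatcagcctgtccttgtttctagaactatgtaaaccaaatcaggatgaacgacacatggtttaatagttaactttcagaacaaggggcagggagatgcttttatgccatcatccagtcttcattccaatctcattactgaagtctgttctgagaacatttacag
Each window holds 1 match to the NKX2-5 core, starting at base 146 in Zfp536 and at base 107, on the opposite strand, in Zbtb20, and neither holds the T-box or the GATA core. Among 32851 promoter windows of this length, 46.4% hold the NKX2-5 core, 13.7% the T-box core and 11.2% the GATA core, so the matches are a description of letters and not of binding. The windows differ in base composition, with 59.7% G and C in Zfp536 and 43.3% in Zbtb20.

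Sequencing gave few counts per nucleus, 55 to 1217 in the control library (560272 in all) and 45 to 1164 in the Tbx5 G125R/+ library (422811 in all). Titin-rich nuclei were deeper than other nuclei, with medians of 251 against 130 counts in the control library and 235.5 against 118 in the Tbx5 G125R/+ library. Levels are therefore given as counts of the gene per 10000 counts of the class, and shares of nuclei also as computed for every nucleus thinned to 80 counts. All 12 cardiomyocyte markers, TTN among them, had counts in titin-rich nuclei and also in other nuclei of both libraries, so detection alone does not mark the class. Summed with TTN included, they stood at 916 (control) and 902 (Tbx5 G125R/+) per 10000 in titin-rich nuclei, against 150 and 138 in other nuclei. The ryanodine receptor gene RYR2 stood at 18.7 (control) and 19.9 (Tbx5 G125R/+) per 10000 in titin-rich nuclei, against 1.83 and 2.77 in other nuclei. TNNI3, cardiac troponin I, separated the classes far less, with 58.7 and 56.4 against 50.8 and 41.9 per 10000. Fibroblast matrix markers summed to 6.19 and 6.12 per 10000 in titin-rich nuclei, against 50 and 43.97 in other nuclei. Of 10 endothelial markers, PECAM1, CDH5, EGFL7 and EMCN had no count in either library. Neuronal and glial markers, which matter here because ZNF536 is known from brain, summed to 0.196 and 0.395 per 10000 in titin-rich nuclei and to 2.16 and 2.33 in other nuclei.

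ZNF536 was read mainly in titin-rich nuclei, and there its level in the Tbx5 G125R/+ library was below that of the control library. The control library had 78 ZNF536 counts in titin-rich nuclei, or 7.66 per 10000 (exact Poisson 95% interval 6.05 to 9.56). The Tbx5 G125R/+ library had 35 counts, or 3.46 per 10000 (2.41 to 4.81), on nearly the same total (101256 against 101848 counts). The intervals of the libraries do not overlap. On the log2 scale the mutant level was -1.14 (-1.77 to -0.55) relative to control, computed after adding 0.5 to either sum, which is 2.20-fold lower (1.47 to 3.40). This contrast is one from which the gene was picked, so its size is a description. Of 730 genes with at least 50 counts in titin-rich nuclei, 0.959% were at least 2-fold lower and 0.685% at least 2-fold higher, with ZNF536 the 4th lowest ratio.

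Many nuclei contributed to the ZNF536 sums. In the control library 71 of 383 titin-rich nuclei had at least 1 count (18.5%, Clopper-Pearson 95% interval 14.8 to 22.8%), and in the Tbx5 G125R/+ library 32 of 404 did (7.92%, 5.48 to 11.0%). In nuclei chosen by matrix markers the shares were 1 of 490 (0.204%) and 1 of 298 (0.336%), at median depths of 154.5 and 139 counts, although 309 and 187 of these nuclei also held a cardiomyocyte marker count. The fullest titin-rich nucleus held 3 of the 78 control counts (3.85%) or 2 of the 35 Tbx5 G125R/+ counts (5.71%), so no single nucleus set either sum. Nuclei with 2 or more counts were rare, 5 in the control and 3 in the Tbx5 G125R/+ library. After thinning to 80 counts the shares were 6.45% (381 nuclei, 2 too shallow) and 2.57% (398 nuclei, 6 too shallow), in the same order as the unthinned shares.
At each depth of titin-rich nuclei the ZNF536 level was lower in the Tbx5 G125R/+ library, but the intervals were apart only at 150 to under 250 counts. Among nuclei with 250 or more counts the control library stood at 6.02 per 10000 (4.30 to 8.20) and the Tbx5 G125R/+ library at 3.502 (2.14 to 5.41), intervals that overlap. At 150 to under 250 counts the levels were 10.1 (6.88 to 14.4) and 3.76 (2.10 to 6.20), which do not overlap. Below 150 counts the control library had 7 ZNF536 counts in 39 nuclei, or 14.7 per 10000 (5.90 to 30.2). The Tbx5 G125R/+ library had none in 37 nuclei (0 to 8.74 per 10000), and these intervals overlap.

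Outside the titin-rich class ZNF536 was scarce. The control library had 33 counts in 3092 other nuclei, 0.720 per 10000 (0.496 to 1.01), and the Tbx5 G125R/+ library had 15 in 2529, 0.466 per 10000 (0.261 to 0.769). Their log2 ratio of -0.60 (-1.61 to 0.29) has an interval that includes 0, and at this depth a difference could not be resolved. With the stricter titin threshold (at least 6 counts and 3%) it was -0.77 (-1.62 to -0.01), and by thinned shares -1.18. The stricter threshold counts nuclei with TTN at 2 to under 3% as other nuclei. With a looser threshold (at least 2 counts and 1%) the ratio was -0.35 (-1.83 to 0.94). It was -0.51 (-1.57 to 0.44) when muscle nuclei were chosen without TTN. A single control nucleus held 5 of the 33 counts (15.2%), and a single Tbx5 G125R/+ nucleus 3 of the 15 (20%). Of all genes with at least 50 counts in other nuclei, 4.88% were at least 1.5-fold lower; ZNF536 itself, with 48 counts, falls below that minimum.
Titin-rich over other nuclei, ZNF536 was 10.5-fold higher in the control (6.997 to 16.5) and 7.27-fold higher in the Tbx5 G125R/+ library (3.94 to 14.6), which is 3.40 and 2.86 on the log2 scale. These sizes depend on the class and the measure, with 4.26 in the control under a looser titin threshold (at least 2 counts and 1%) and 4.09 and 3.94 on the log2 scale by thinned shares. At least 2-fold higher were 9.76% of 1906 genes in the control and 10.8% of 1535 genes in the Tbx5 G125R/+ library. Whether the library ratio of ZNF536 differed between the classes was not resolved: the log2 ratio of the 2 ratios was -0.52 (-1.65 to 0.65).

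ZBTB20 was read in nuclei of all classes. Its highest level was in titin-rich nuclei, though in the Tbx5 G125R/+ library that level could not be told apart from the one in nuclei chosen by matrix markers. In the control library titin-rich nuclei had 1643 counts, or 161 per 10000 (154 to 169). In the Tbx5 G125R/+ library they had 1385 counts, or 137 per 10000 (130 to 144), below the control interval. The log2 ratio was -0.24 (-0.34 to -0.13), a 1.18-fold lower level (1.10 to 1.27). In other nuclei the order turned, with 4227 counts or 92.2 per 10000 (89.4 to 95.03) in the control and 3191 counts or 99.2 (95.8 to 103) in the Tbx5 G125R/+ library, a log2 ratio of 0.11 (0.04 to 0.17). Neither ratio reached 1.5-fold. A cardiomyocyte marker count was held by 1924 of 3092 other nuclei in the control and by 1539 of 2529 in the Tbx5 G125R/+ library. Other nuclei are those outside the titin rule and cannot be read as non-muscle nuclei. In titin-rich nuclei 6.85% of 730 genes were at least 1.5-fold lower and 6.03% at least 1.5-fold higher, and in other nuclei 3.67% of 2317 genes were at least 1.5-fold higher. By size the ZBTB20 ratio in titin-rich nuclei was the 188th lowest of the 730, and among the 17 genes with at least 1000 counts the 3rd lowest.
Titin-rich over other nuclei, ZBTB20 was 1.75-fold higher in the control (1.65 to 1.85) and 1.38-fold higher in the Tbx5 G125R/+ library (1.29 to 1.47). At least 1.5-fold higher were 15.6% of genes in the control and 16.3% in the Tbx5 G125R/+ library.
The library ratio of ZBTB20 differed between the classes by -0.34 (-0.47 to -0.22). How cardiomyocyte nuclei are chosen bears on this value. When they were chosen by the summed counts of MYH6, RYR2, TNNT2, ACTN2, MYBPC3, LDB3, NEXN and ATP2A2 in place of TTN, with the same limits, the ZBTB20 ratio was -0.06 (-0.16 to 0.04) and the difference between classes -0.13 (-0.25 to -0.004), whereas the ZNF536 ratio was -0.98 (-1.60 to -0.41).

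**Figure D1:**
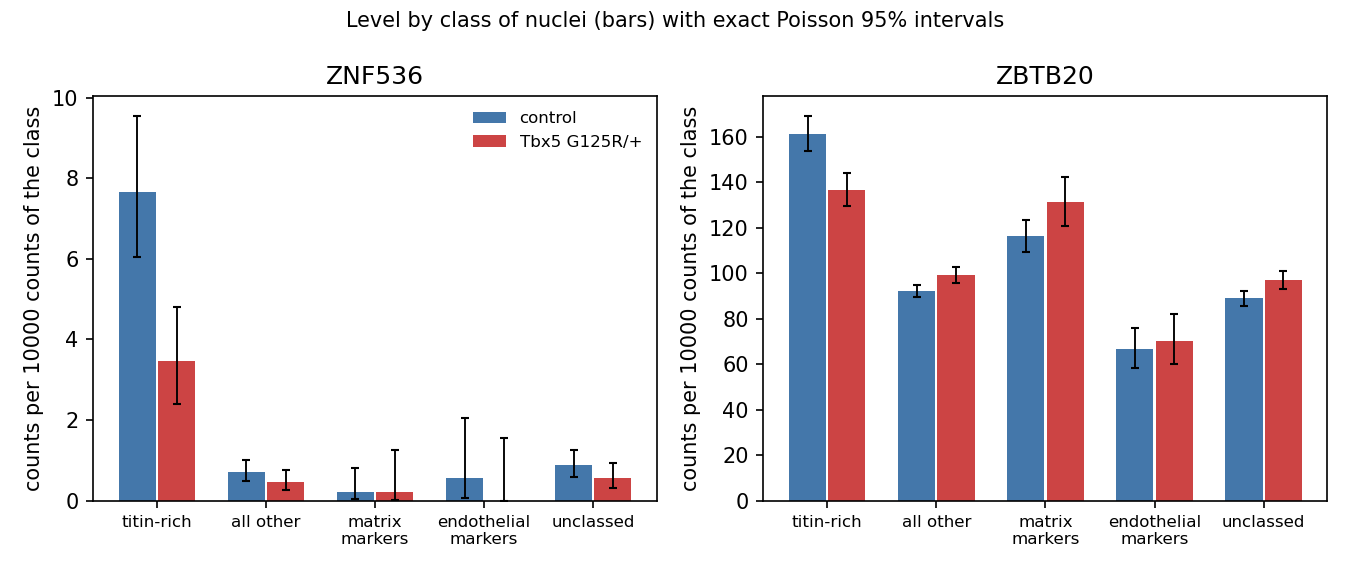
Levels of ZNF536 (left) and ZBTB20 (right) as counts per 10000 counts in 5 classes of nuclei, for the control (blue) and Tbx5 G125R/+ (red) library; bars start at 0, error bars are exact Poisson 95% intervals, and "all other" holds every nucleus that was not titin-rich, the few with macrophage or mural markers included. ZNF536 stands at 7.66 and 3.46 in titin-rich nuclei and below 1 elsewhere, while ZBTB20 ranges from 66.7 to 161.

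Both ways of choosing nuclei met in 298 control and 318 Tbx5 G125R/+ nuclei. In these ZBTB20 stood at 164 (156 to 173) and 134 (126 to 142) per 10000, a log2 ratio of -0.29 (-0.41 to -0.18). Nuclei chosen by the other muscle genes alone, which held 341 and 304 ZBTB20 counts, went the opposite way, with 87.8 (78.7 to 97.6) in the control and 134 (120 to 150) in the Tbx5 G125R/+ library, a ratio of 0.62 (0.39 to 0.84). Nuclei chosen by the titin rule alone, 85 and 86, stood at 148.8 and 148.7 per 10000, a ratio of -0.00094 (-0.24 to 0.24). In nuclei chosen by the titin rule alone TTN stood at 386 and 396 per 10000. It stood at 98.6 and 123 in nuclei chosen by the other muscle genes alone, and at 453 and 484 where both rules met. For ZNF536 the log2 ratio was below 0 in each of these groups, from -1.22 (-1.93 to -0.58) where both rules met to -0.26 (-1.73 to 0.98) where only the other muscle genes chose. The part of cell mixture in these values was not tested.

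ZBTB20 was detected in most titin-rich nuclei. At least 1 count was found in 358 of 383 control nuclei (93.5%, 90.5 to 95.7%) and in 369 of 404 Tbx5 G125R/+ nuclei (91.3%, 88.2 to 93.9%). The libraries were further apart at higher counts, since 157 of the 383 control nuclei but 115 of the 404 Tbx5 G125R/+ nuclei held 5 or more. The median over positive titin-rich nuclei was 4 counts in the control and 3 in the Tbx5 G125R/+ library. The fullest nuclei held 17 and 16 counts, or 1.03% and 1.16% of the sums. In other nuclei 1914 of 3092 control (61.9%) and 1470 of 2529 Tbx5 G125R/+ nuclei (58.1%) were positive, and at 80 counts the order turned to 47.6% and 49.6%. In titin-rich nuclei the thinned shares were 69.9% and 64.5%.

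**Figure D2:**
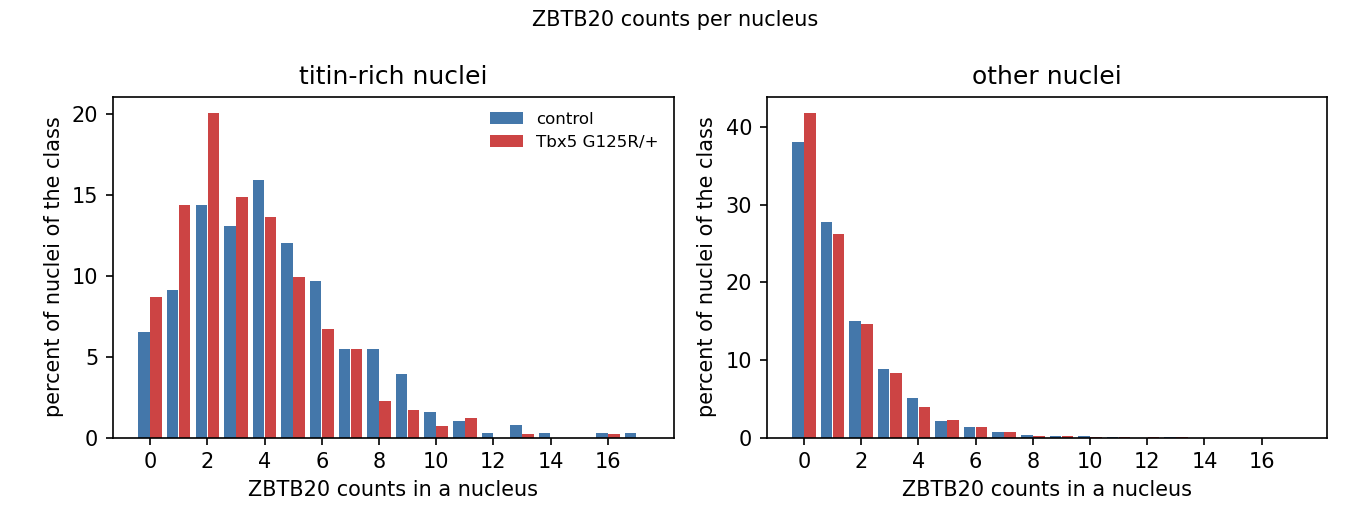
Percent of nuclei (vertical axis) by ZBTB20 counts in a nucleus (horizontal axis) for titin-rich (left) and other nuclei (right), control in blue and Tbx5 G125R/+ in red, not thinned. In titin-rich nuclei the red bars are higher at 1 to 3 counts and the blue bars at 4 to 6, with 17 control nuclei at 10 counts or more.

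Among other nuclei ZBTB20 followed the marker class. Nuclei with at least 2 counts of fibroblast matrix markers had 116 per 10000 (109 to 124) in the control and 131 (121 to 142) in the Tbx5 G125R/+ library, from 1047 and 588 counts. Nuclei with an endothelial marker had 66.7 (58.5 to 75.8) and 70.4 (60.1 to 81.9), from 236 and 167 counts. Unclassed nuclei, 2352 and 2024 of them, had 89.0 (85.8 to 92.3) and 97.0 (93.2 to 101). In the control library the order was therefore titin-rich, matrix, unclassed and endothelial, with intervals that do not overlap. In the Tbx5 G125R/+ library titin-rich and matrix nuclei could not be told apart, with a log2 ratio of titin-rich over matrix of 0.06 (-0.08 to 0.20), against 0.47 (0.36 to 0.59) in the control. Macrophage and mural markers chose only 11 to 19 nuclei per library, with 3 and 10 ZBTB20 counts in macrophage-marker nuclei and 10 and 12 in mural-marker nuclei.
ZNF536 had no such spread. Matrix nuclei held 2 and 1 counts, and endothelial nuclei 2 in the control and 0 of 174 in the Tbx5 G125R/+ library, which allows a share of nuclei with a count of up to 1.72% (3 of 174) at a median depth of 133 counts. No ZNF536 count fell in macrophage-marker or mural-marker nuclei. These classes are ranges cut from sparse counts and not cell types, since most other nuclei carried too few markers to be placed.

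Along the titin share of nuclei both genes changed level, at different places. ZNF536 stood at 0.354 per 10000 (0.189 to 0.605) in control nuclei without TTN and at 0.191 (0.00485 to 1.07) in those with TTN below 1% of counts. It reached 5.21 (3.14 to 8.13) at 1 to under 2% and 8.93 (5.10 to 14.5) at 6% or more. In the Tbx5 G125R/+ library the same steps gave 0.230 (0.0845 to 0.501), 0.344 (0.00871 to 1.92), 2.59 (1.04 to 5.33) and 1.88 (0.512 to 4.81). The Tbx5 G125R/+ level was below the control level in each bin from 1% on, with intervals that overlap except in the last.
ZBTB20 went from 93.4 per 10000 in control nuclei without TTN to 169 (155 to 184) at 4 to under 6% and 167 (149 to 187) at 6% or more. In the Tbx5 G125R/+ library it stood at 98.0 without TTN, at 158 (142 to 175) at 3 to under 4%, and at 116 (102 to 131) at 6% or more. The libraries had like levels at 3 to under 4%, and their intervals were apart at 4 to under 6% and above. With TTN above 0 but below 1% of counts the intervals were also apart, in the opposite direction. There the control library stood at 72.0 (64.9 to 79.7) and the Tbx5 G125R/+ library at 93.6 (82.8 to 105). Nuclei just inside the class, with TTN at 2 to under 3% and at least 4 counts, had ZBTB20 at 150 and 135 per 10000 and ZNF536 at 5.96 and 2.51, in 99 control and 82 Tbx5 G125R/+ nuclei. Nuclei just outside it by share, with at least 4 TTN counts below 2%, had ZBTB20 at 85.3 and 119, in 55 and 34 nuclei. ZNF536 stood at 3.93 (1.80 to 7.47) and 3.97 (1.08 to 10.2) there, from 9 and 4 counts. Just inside the class ZNF536 rested on 16 and 5 counts, with intervals of 3.41 to 9.68 and 0.816 to 5.86. In both groups the ZNF536 intervals of the libraries overlap.

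**Figure D3:**
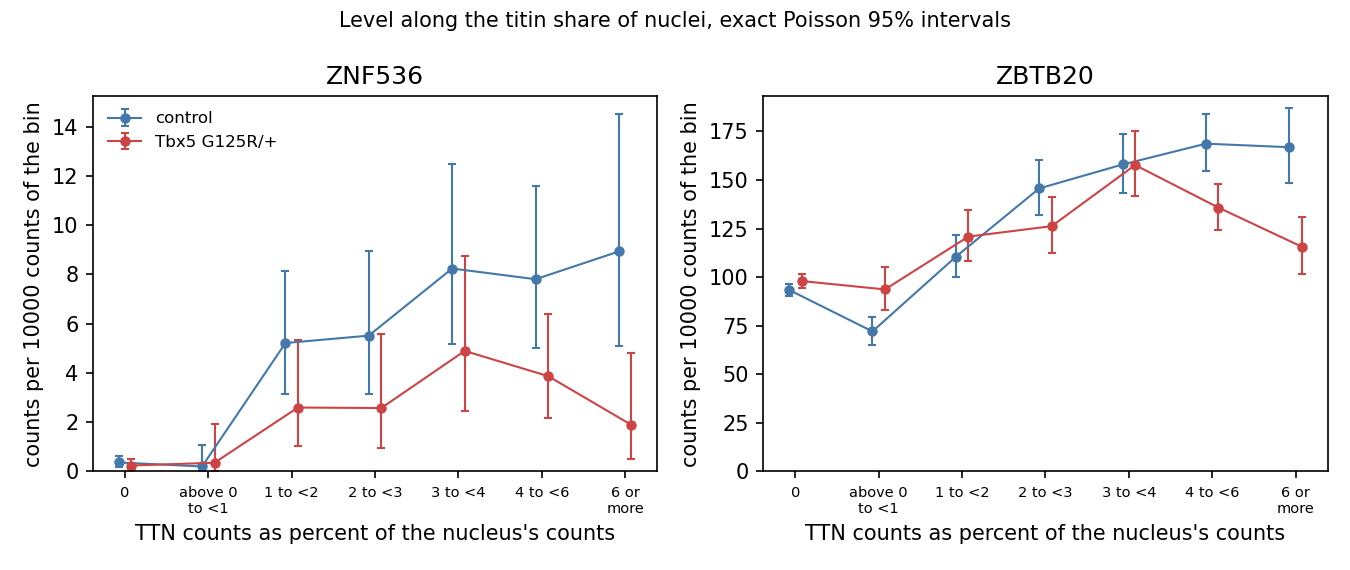
Counts per 10000 counts of ZNF536 (left) and ZBTB20 (right) in bins of nuclei by TTN share (horizontal axis, percent of the counts of a nucleus), control in blue and Tbx5 G125R/+ in red, with exact Poisson 95% intervals. ZNF536 is near 0 below 1% TTN in both libraries, and ZBTB20 in the Tbx5 G125R/+ library goes down from 158 at 3 to under 4% to 116 at 6% or more.

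Because RNA free in the droplets can place transcripts in any nucleus, the counts of both genes were also set against those of TTN. ZNF536 had 1.74 counts per 100 TTN counts in titin-rich and 3.68 in other control nuclei, and 0.740 and 2.09 in the Tbx5 G125R/+ library. Its counts in other nuclei are few enough that background was not separated from expression. ZBTB20 had 36.7 and 29.3 counts per 100 TTN counts in titin-rich nuclei but 472 and 444 in other nuclei. The classes were cut by TTN itself, which stood at 440 and 467 per 10000 in titin-rich nuclei and at 19.5 and 22.4 in other nuclei. A lower value per TTN count in titin-rich nuclei is therefore largely set by the rule, and these values cannot separate free RNA from expression. The level of free RNA was not measured, and its part in these counts was not tested.

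The genes were also compared nucleus by nucleus. Control titin-rich nuclei with a ZNF536 count had ZBTB20 at 167 per 10000 (150 to 186), and those without at 160 (151 to 169). In the Tbx5 G125R/+ library the levels were 130 (108 to 154) with and 138 (130 to 145) without. The intervals overlap in both libraries, so no link between the genes within titin-rich nuclei was detectable. Among other nuclei, those with a ZNF536 count carried TTN at 108 (83.2 to 139) and 112 (68.4 to 173) per 10000, against 18.4 and 21.9 in those without. Their ZBTB20 level was 117 (90.8 to 149) in 25 control nuclei and 218 (155 to 299) in 12 Tbx5 G125R/+ nuclei, against 91.9 and 98.6 in nuclei without ZNF536.

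The log2 levels (per 10000 counts, with 0.5 added) of all genes with at least 100 counts were correlated (Pearson's r) with those of the members over 10 values (titin-rich, matrix, endothelial, macrophage-marker and unclassed nuclei of each library), as a description, since the values share libraries and depth. Of 1707 genes, those most like ZNF536 were TNNC1, the calcium-binding troponin subunit, with r = 0.99, KCNH2, a potassium channel of repolarization, with r = 0.97, and FGF12, an intracellular partner of sodium channels, with r = 0.96. These genes had log2 library ratios of -0.80 (102 Tbx5 G125R/+ and 179 control counts), -0.59 (48 and 73) and -0.31 (72 and 90) in titin-rich nuclei, values that entered the correlation by which the genes were chosen. ZBTB20 was most like ZBTB16, a BTB zinc finger relative, with r = 0.96, and ZFPM2, a cofactor of GATA factors, with r = 0.94. Their log2 library ratios were 0.21 and -0.04 (133 and 138 counts for ZFPM2). All 10 values had the same weight, also those of the few macrophage-marker nuclei. In the 16 control nuclei of that class ZBTB20 had its lowest level, 13.4 per 10000 from 3 counts, and ZBTB16 and ZFPM2 had 0. The r values for ZBTB20 therefore lean on a point near the floor. The members had r = 0.59 with each other.

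Few relatives of the members had enough counts to be set beside them. Of 38 BTB zinc finger genes in the tables, 3 had at least 50 counts in titin-rich nuclei, and ZBTB20 held 83.8% of the counts of the list there. ZBTB16 had a library ratio of 0.21 on the log2 scale (-0.18 to 0.59), and ZNF131 had 29 Tbx5 G125R/+ and 32 control counts, a ratio of -0.13 (-0.91 to 0.64). Like ZBTB20, ZBTB16 was higher in titin-rich than in other nuclei, at 10.7 against 5.13 per 10000 in the control and 12.3 against 6.47 in the Tbx5 G125R/+ library. Both relatives were within 1.5-fold, and both intervals include 0.
Of 141 other zinc finger genes 13 had at least 50 counts, given here as Tbx5 G125R/+ and then control counts. Besides ZNF536, 1 of the other 12 was at least 1.5-fold lower and none higher, against 6.85% and 6.03% of all 730 genes, with a median log2 ratio of 0.01 over the 12, against 0.01 over all 730 genes. That gene, ZNF407, had 25 and 45 counts (-0.83, -1.61 to -0.10). ZNF521, a zinc finger regulator of progenitor cells, was read most, with 558 and 524 counts and a ratio of 0.10 (-0.08 to 0.27). ZNF106 had 136 and 140 counts (-0.03), ZNF90 84 and 115 (-0.44, -0.87 to -0.03), ZNF608 60 and 77 (-0.35) and ZNF462 73 and 62 (0.24). ZNF521, at 51.4 per 10000 in titin-rich and 14.2 in other control nuclei, was muscle-enriched without a difference between libraries beyond counting error.
Of 25 co-repressor genes, 24 of them in the tables, 4 had at least 50 counts, and 1 of the 4 was at least 1.5-fold lower, against 6.85% of all 730 genes, a list too short to set against that share. CHD4, the nucleosome remodeler of the NuRD complex, had 159 counts in the control and 105 in the Tbx5 G125R/+ library (-0.59, -0.96 to -0.23). NCOR1, a nuclear receptor co-repressor, had 27 and 29 counts (0.11, -0.70 to 0.92), CTBP2, a co-repressor that binds short peptide motifs, had 34 in each library (0.01, -0.72 to 0.74), and GATAD2B, another NuRD subunit, had 31 and 29 (-0.09, -0.87 to 0.69).

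**Figure D4:**
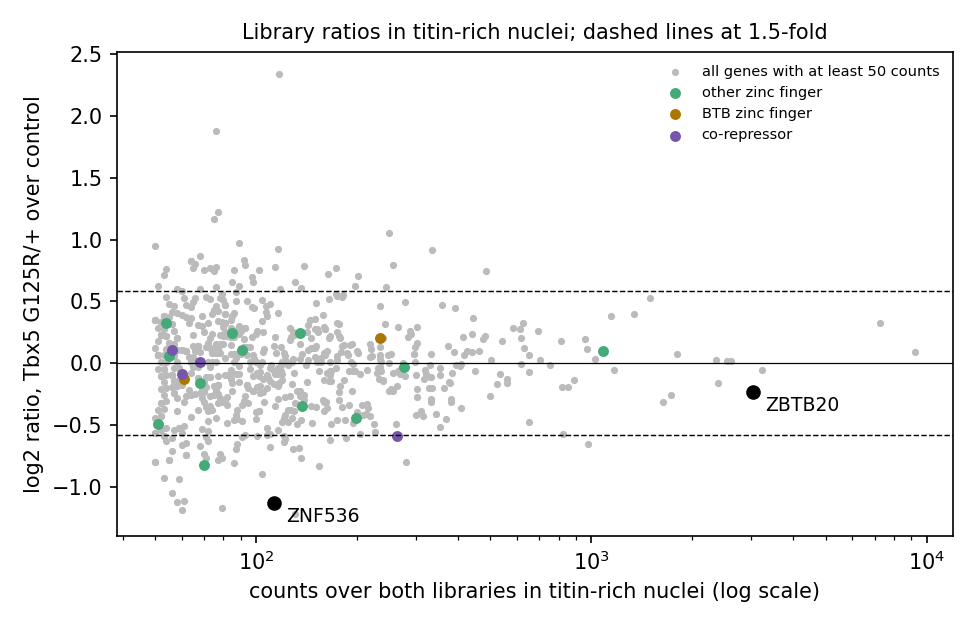
Log2 ratio of Tbx5 G125R/+ over control (vertical axis) against counts over both libraries (horizontal axis, log scale) for the 730 genes with at least 50 counts in titin-rich nuclei; each point is a gene, colors mark the zinc finger and co-repressor lists, and dashed lines mark 1.5-fold. ZNF536 is at -1.14 with 35 and 78 counts, and ZBTB20 at -0.24 with 1385 and 1643.

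The tables also count antisense genes at the ZBTB20 locus, and whether counting used the strand is not given in the sources used here, so reads of ZBTB20 and of these genes may not be fully separated. ZBTB20-AS2 had 33 control and 35 Tbx5 G125R/+ counts in titin-rich nuclei (log2 ratio 0.09, -0.64 to 0.82) and 85 and 52 in other nuclei (-0.19, -0.72 to 0.32). ZBTB20-AS5 had 18 and 12 counts in titin-rich and 68 and 46 in other nuclei. ZBTB20-AS1 had 3 and 5 in titin-rich nuclei and 27 and 6 in other nuclei, the latter a log2 ratio of -1.57 (-3.22 to -0.35). Together these are small beside the ZBTB20 counts. In the mouse annotation, 9 genes overlap Zbtb20, 4 of them on the opposite strand, and 3 overlap Zfp536, 1 of them on the opposite strand.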

How the data were processed

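The deposited values are raw counts per nucleus and gene, not normalized, with zeros left unlisted; per the labels the authors had required 1000 reads of a nucleus. The counting tool is not given in the sources used here, and the submitters' processing notes name mm10. In each library 1 nucleus reached 1000 counts. The tables number nuclei without barcodes, so barcodes shared between libraries were not counted. Doublet treatment is not given in the sources used here, and no doublet caller was run. The authors' table of p-values and fold changes between genotypes per cluster was not used, and their cluster labels were used only where named.

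Counts were summed per library and class and divided by the class total. Intervals are exact 95% intervals: Poisson for sums, Clopper-Pearson for shares, conditional binomial for ratios and conditional on the margins for ratios of ratios. Droplet reads are not independent samples of mice, so these cover counting error only. Shares at 80 counts were computed from the hypergeometric distribution, leaving out shallower nuclei. Marker classes outside the titin-rich class needed at least 2 matrix counts or at least 1 endothelial, macrophage or mural count, and none of the other lists. Genes entered ratios across genes with at least 50 counts. The ratio calculation was tested on simulated data. Python 3.11.15, numpy 2.4.6, scipy 1.17.1, pandas 2.3.3 and matplotlib 3.10.9 were used. Named genes were the members, markers, the 3 genes of most like pattern for each (1 of those for ZBTB20 is not reported here), and up to 10 list genes of most counts. Antisense genes were left out of the BTB list. Members and lists were chosen with earlier results of these data known. Alternatives were other titin thresholds, a class without TTN, 2 other scalings, deeper nuclei, leaving out the fullest nucleus and thinned shares.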

Additional observations from a re-analysis of the deposited data

Results flagged for a closer look

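ZBTB20 was lower in the Tbx5 G125R/+ library in titin-rich nuclei and higher in other nuclei, which puts the same contrast on opposite sides of 0 in the 2 classes, with a difference of log2 ratios of -0.34 (-0.47 to -0.22 by counting error). With 1 library per genotype this difference was not tested between mice. Most other nuclei held a cardiomyocyte marker count, so the 2 classes are not muscle and non-muscle. With muscle nuclei chosen without TTN the difference was -0.13 (-0.25 to -0.004).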

How the results depend on the processing

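Of 65 alternative values 53 stayed within the counting interval of the reported value (for the share of genes past a fold, within 1.5 times of it), 12 did not, and none changed sign. For ZNF536, log2 ratios between libraries in titin-rich nuclei ranged from -1.33 to -0.98 over 8 alternatives. Titin-rich over other nuclei, ZNF536 came to 4.26 in the control with a looser titin threshold (at least 2 counts and 1%), and to 4.09 in the control and 3.94 in the Tbx5 G125R/+ library by thinned shares. For ZBTB20 the library ratio in titin-rich nuclei was -0.060 with a class chosen without TTN and -0.11 by thinned shares. The difference of its ratios between classes was -0.13 without TTN, an alternative chosen after seeing the data. ZBTB20 in titin-rich over other control nuclei was 0.70 with the looser threshold, 0.55 without TTN, 0.89 with totals that leave out the 10 most abundant genes and 0.55 by thinned shares, and 0.56 with those totals in the Tbx5 G125R/+ library. The share of genes at least 1.5-fold lower in titin-rich nuclei was 12.4% at a minimum of 20 counts. The scale set by the median of ratios differed from that set by total counts by -0.04 in titin-rich nuclei. No paired analysis was possible because each genotype has 1 library, and for the same reason no replicate could be left out. Depth limits ZNF536 outside titin-rich nuclei, where 33 and 15 counts were found.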

Other observations

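Whether the cluster labels deposited with the nuclei are aligned with them is uncertain, since no label gathered the titin-rich nuclei, and the following values describe the labels as given. Over the 7 labels with at least 100 nuclei, the level of ZBTB20 per 10000 counts spanned 93.8 to 108 among control nuclei and 88.9 to 117 among Tbx5 G125R/+ nuclei, and that of ZNF536 ranged from 1.05 to 2.76 and from 0.616 to 2.75. The share of titin-rich nuclei ranged from 7.63% to 12.2% and from 10.8% to 16.8% over the same labels, and TTN from 71.8 to 104 and from 102 to 170 per 10000. Of the smaller labels, g8 of the control library (79 nuclei) stood above these ranges, with ZNF536 at 6.30 (8 counts), ZBTB20 at 138.6 and TTN at 136 per 10000.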
